A study of Sus scrofa domesticus with 8 samples.

Results

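Cultured porcine granulosa cells were compared between 144 h and 96 h of culture, the last step of a series of 4 times (0 h, 48 h, 96 h and 144 h). The comparison was made of 4 of the 8 arrays of the series, 2 at 144 h and 2 at 96 h. The 2 arrays at 48 h were used to separate levels that were new at 144 h from levels that had moved at 96 h and then came back. The 2 arrays at 0 h, taken before culture, entered the fit and give the starting level. All groups came from crossbred Landrace gilts (43 animals, median age 170 days, median weight 98 kg), whose granulosa cells were taken after slaughter, and no hormone or other agent is named in the labels for any time. The cells grew in DMEM with 2% fetal bovine serum and antibiotics at 37 °C, so the 96 h and 144 h groups differ, as far as the labels say, in time alone. Nothing in the labels tells whether a pair of arrays stood for separate pools, cultures or RNA extracts. The p-values therefore measure the spread between arrays, which may be technical, and the small number of arrays limits the precision of every value.

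Granulosa cells line the ovarian follicle around the oocyte. In the follicle they make oestradiol under FSH, activin and inhibin from shared subunits, and KIT ligand, which signals to KIT on the oocyte and on theca cells. On plastic with serum they attach, spread and lay down a matrix of collagens and of small leucine-rich proteoglycans, proteins that bind collagen fibrils and growth factors and are better known from fibroblasts. Many genes of such cultures respond to TGF-beta, whose feedback inhibitors SMAD7 and PMEPA1 are themselves its targets.

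The values are log2 intensities, so a difference of 1 is a 2-fold change. The 27558 measured features had array medians between 4.52 and 4.63 and lower quartiles between 3.13 and 3.25, the range taken here as dim. Across features, the 2 arrays at 96 h were the closest pair of any time (SD of their difference 0.162) and the 2 at 144 h the farthest apart (0.382). The fit used 1 estimate of the spread per feature for the 4 times together. Of 30 granulosa identity genes, 24 had a named feature. Their summed level was 12.90 and 12.92 at 96 h and 12.89 and 12.97 at 144 h, against 14.33 and 14.38 before culture. Of the 24, 1 lay below the lower quartile at both 96 h and 144 h. AMH, the anti-Müllerian hormone gene, read 2.92 and 2.71 at 96 h and 2.89 and 3.27 at 144 h. HSD17B1, which makes oestradiol, was above the dim range but below the array medians, at 4.15 and 3.87 and then 4.32 and 4.10. GJA1, the gap junction protein of the follicle wall, stayed bright (11.34 and 11.31 at 96 h, 11.47 and 11.28 at 144 h).

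Between 96 h and 144 h, 6115 features (22.2%) passed limma's moderated test, with an adjusted p under 0.05, 3333 of them higher (12.1%) and 2782 lower (10.1%) at 144 h. Among the 10707 genes with a name and 1 feature each, 2470 (23.1%) were called, 1392 higher (13%) and 1078 lower (10.1%). Most of these differences were small, with 370 higher and 208 lower genes reaching 2-fold. Each called gene was then placed by its level at 48 h. A return had moved between 48 h and 96 h in the opposite direction and was not called between 48 h and 144 h, with the 95% interval of that difference inside 1 log2 unit either way. Of the called genes, 1566 (63.4%) were returns, which is 14.6% of all named genes: 889 (8.3%) returned upward and 677 (6.32%) downward. A partial return was called in all 3 comparisons and lay between its 48 h and 96 h levels at 144 h, as 156 genes did (1.46%; 74 or 0.691% upward and 82 or 0.766% downward). A new level was called between 144 h and both earlier times in the same direction. There were 292 such genes (2.73%, or 11.8% of the called genes), 186 upward (1.74%) and 106 downward (0.99%): 195 had not been called between 48 h and 96 h, 67 had already moved the same way, and 30 had moved the opposite way and ended beyond their 48 h level. The other 456 called genes met none of these definitions and are named unresolved. For scale, the comparison of 96 h with 48 h called 31.3% of named genes and that of 144 h with 48 h called 10.4%. Both 144 h arrays lay above both 96 h arrays for 31.1% of named genes and below both for 30.3%, called or not. Because the 3 comparisons share arrays, these are classes and not independent evidence.

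**Figure D1:**
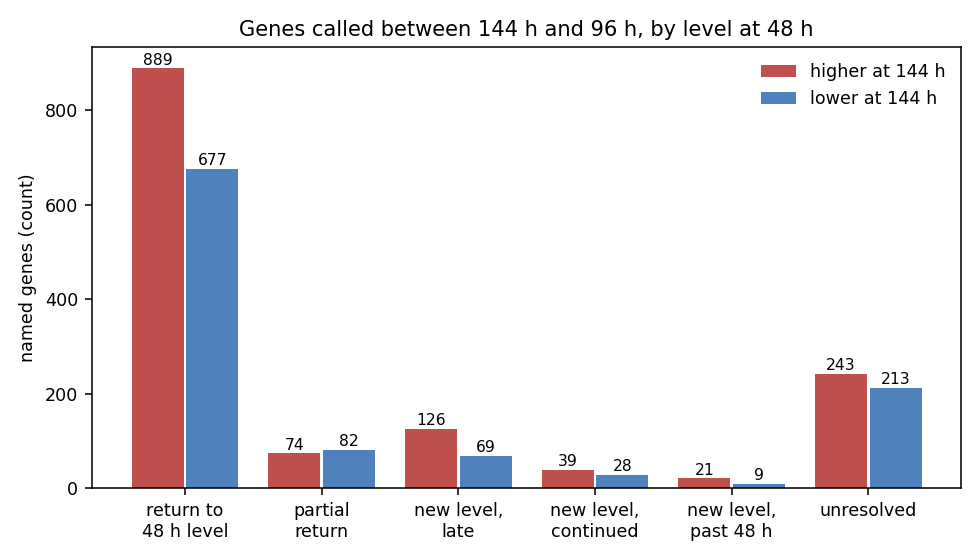
Number of named genes called between 144 h and 96 h (vertical axis, count) in each class, with genes higher at 144 h and genes lower at 144 h as separate bars. Returns to the 48 h level are the tallest bars, with 889 genes upward and 677 downward, against 186 and 106 genes at new levels.

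Among the fits without 1 array, the number of called features moved most where a 96 h array was left out. Without 96 h replicate 1 the count fell to 2437 features, of which 1641 were returns, and without 96 h replicate 2 to 2594, of which 1757 were returns. Without 144 h replicate 1 or 2, the new levels rose from 599 features to 1284 or 1144, and they fell to 275 or 288 without 48 h replicate 1 or 2 and to 184 or 199 without 96 h replicate 1 or 2. Partial returns fell from 384 features to 118 or 123 without 96 h replicate 1 or 2 and to 166 or 195 without 48 h replicate 1 or 2. For this reason, calls on named genes are marked below where a fit without 1 array lost them, with the adjusted p of that fit. A named call without such a mark passed in all 8 fits. These marks concern the call against 96 h, while a class also rests on the difference from 48 h and was lost more often: of 155 named genes in a class, 115 kept the call and 70 the class in all 8 fits.

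The genes with the largest returns were low at 96 h alone or high at 96 h alone among the cultured times. DPM3, a subunit of the enzyme that makes the mannose donor for glycosylation, read 9.62 and 9.44 at 48 h, 5.92 and 6.04 at 96 h and 9.18 and 9.48 at 144 h. It lay far below its other arrays at 96 h and rose 10.2-fold by 144 h (difference 3.35 ± 0.14, SE, n = 2 arrays a time, adjusted p = 1.2e-05). GSTM3, a glutathione transferase, went from 7.18 and 7.13 to 4.60 and 4.47 and back to 7.19 and 7.03 (difference from 96 h 2.57 ± 0.12). ATG4C, a protease of autophagosome formation, rose by 2.48 ± 0.16, and RARB, a retinoic acid receptor, by 2.45 ± 0.21. SERPINB2, an inhibitor of plasminogen activators, read 2.87 and 2.87 before culture, 8.24 and 8.24 at 48 h, 6.03 and 6.03 at 96 h and 7.95 and 8.77 at 144 h. Its induction in culture was thus partly lost at 96 h and present again at 144 h (difference 2.33 ± 0.23). CEBPD, a transcription factor of acute inflammation, rose by 2.23 ± 0.13, although another feature of the gene differed by -0.20 and was not in this pattern. The adjusted p of these 6 genes lay between 1.2e-05 and 0.000445. Genes named by this rule had to be called, with no overlap between the 144 h and 96 h arrays. Neither trait is therefore a separate result.

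The 6 largest downward returns ran from a peak at 96 h back to the 48 h level. RPS16, a protein of the small ribosomal subunit, read 6.15 and 6.15 at 48 h, 8.68 and 8.99 at 96 h and 5.95 and 6.16 at 144 h. Its 144 h arrays had come back to the 48 h level (difference from 96 h -2.79 ± 0.15, adjusted p = 4.62e-05). EIF1B, a relative of the initiation factor that selects start codons, fell by 2.78 ± 0.18 from 7.95 and 8.03 to 5.38 and 5.03. TAF7, a subunit of the general transcription factor TFIID, had a difference of -2.63 ± 0.16, and RRBP1, a ribosome receptor of the endoplasmic reticulum, one of -2.51 ± 0.19. RPL23A of the large ribosomal subunit had a difference of -2.44 ± 0.12, with -1.003 for its other feature. MSANTD4 had a difference of -2.41 ± 0.16. These 6 genes were chosen by the same rule, and their adjusted p lay between 2.98e-05 and 0.000165. Of the 12 leading returns, 9 kept their class in all 8 fits without 1 array.

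**Figure D2:**
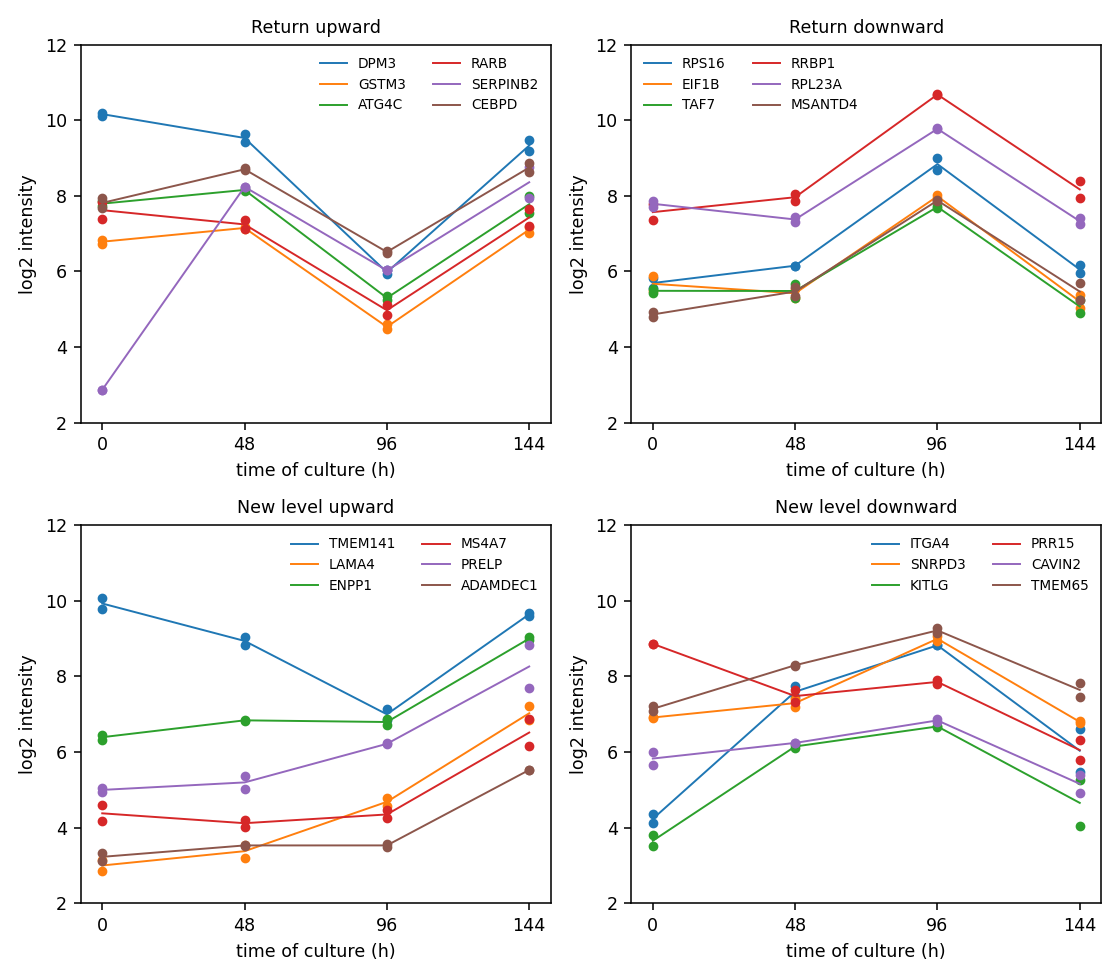
Log2 intensity (vertical axis) against time of culture in hours (horizontal axis) for the 6 genes with the largest differences among returns upward, returns downward, new levels upward and new levels downward; points are the 2 arrays of a time and lines join their means. Returns form a dip or a peak at 96 h, as DPM3 at 5.92 and 6.04 or RPS16 at 8.68 and 8.99, while LAMA4 and ENPP1 reached at 144 h a level not seen before.

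Subunits of large housekeeping complexes returned in both directions within 1 complex. Of 41 ribosomal protein genes, 6 rose and 11 fell between 96 h and 144 h (over all named genes, 13% and 10.1%). Returns made up 16 of these 17. None of the 41 was called between 144 h and 48 h, where 1 passed an unadjusted p of 0.05 in the same limma fit. RPS27 rose from 7.45 and 7.55 to 9.40 and 9.39 (difference 1.89 ± 0.10) while RPLP1 went from 8.64 and 8.44 to 6.87 and 6.59 (difference -1.81 ± 0.27). The differences of the 41 genes had an SD of 0.844 from 96 h to 144 h and of 0.845 from 48 h to 96 h, but of 0.138 from 48 h to 144 h. For all named genes the same SDs were 0.487, 0.634 and 0.467. The wide spread at 96 h lay in part of the ribosomal protein genes, since 24 of the 41 were not called. Their median absolute difference from 96 h to 144 h was 0.248, against 0.228 for all named genes. As a list they kept their 48 h proportions at 144 h.

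Respiratory chain genes also returned in both directions. Of 39 measured, 12 rose and 13 fell between 96 h and 144 h (over all named genes, 13% and 10.1%). Returns made up 24 of these 25, and 1 of the 39 was called between 144 h and 48 h. ATP5G1, a subunit of the membrane ring of ATP synthase, read 10.26 and 10.21 at 48 h, 8.20 and 8.06 at 96 h and 10.11 and 10.19 at 144 h (difference from 96 h 2.02 ± 0.11). NDUFS6, a subunit of complex I, ran the other way, with 6.13 and 6.21, 8.21 and 8.21 and 6.21 and 6.24 (difference -1.98 ± 0.10). NDUFA12, of the same complex as NDUFS6, rose by 1.51 ± 0.11, so subunits of 1 complex moved apart at 96 h and came back together. The SD of the differences was 0.897 from 96 h to 144 h and 0.189 from 48 h to 144 h. Of 19 proteasome genes, 5 were higher and 4 lower, with SDs of 0.788 and 0.192 for the same comparisons. PSME2, of the immune-induced activator, rose by 1.85 ± 0.12 and PSMB4, a core subunit, by 1.66 ± 0.11.

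A check within genes was possible where the array held more than 1 feature of a gene. Of 153 returning genes with another feature, 84 (54.9%) had one that was also called in the same direction. For new levels it was 13 of 24 genes (54.2%), and for partial returns 7 of 19 (36.8%). Over all features, 12.1% were called higher and 10.1% lower. All other features had the same sign as the named one for 114 of the 153 returns. This held for 21 of the 24 new levels and 10 of the 19 partial returns. Where other features disagree with the named one, their differences are given below. Each time was measured on its own 2 arrays, so what happened to the cells at 96 h and what happened to those 2 arrays cannot be told apart.

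**Figure D3:**
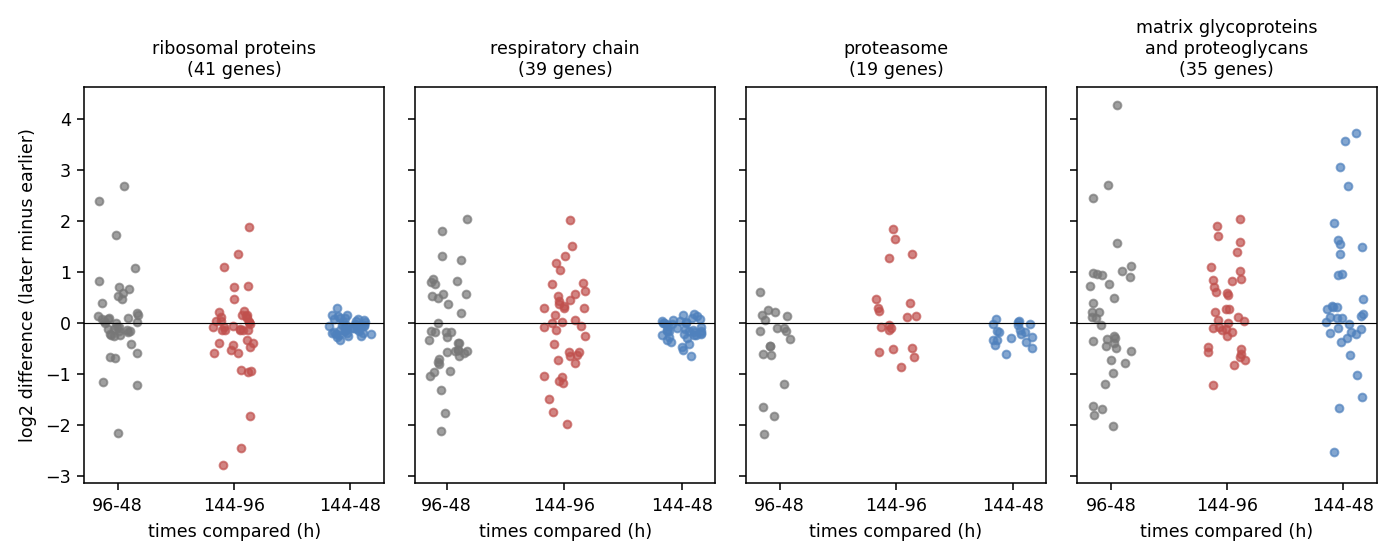
Log2 differences (vertical axis) between 96 h and 48 h, 144 h and 96 h, and 144 h and 48 h (horizontal axis) for each measured gene of 4 lists, 1 point a gene. Ribosomal protein, respiratory chain and proteasome genes spread widely in the comparisons that hold 96 h and lie near 0 between 144 h and 48 h (SDs of 0.138, 0.189 and 0.192), whereas matrix glycoprotein and proteoglycan genes stay spread there too (1.37).

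The 6 largest new levels upward were those of TMEM141, LAMA4, ENPP1, MS4A7, PRELP and ADAMDEC1. LAMA4, a laminin chain of basement membranes, read 3.21 and 3.55 at 48 h, 4.58 and 4.78 at 96 h and 7.21 and 6.84 at 144 h. It rose at each step, 5.07-fold at the last (2.34 ± 0.18, adjusted p = 0.000189). PRELP, a small leucine-rich proteoglycan that ties matrix to basement membranes, read 5.03 and 5.37 at 48 h, 6.21 and 6.23 at 96 h and 8.84 and 7.69 at 144 h. The 144 h arrays stood more than 1 unit apart from each other, and both lay above all earlier arrays (2.04 ± 0.32, adjusted p = 0.0032). ENPP1, an ectoenzyme that makes pyrophosphate from ATP, was level until 96 h (6.83 and 6.85, then 6.88 and 6.71) and read 9.04 and 8.96 at 144 h (2.21 ± 0.12, adjusted p = 3.87e-05).

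ADAMDEC1, a secreted metalloprotease, was near the dim range through 96 h (3.50 and 3.56) and read 5.53 and 5.53 at 144 h (1.996 ± 0.11, adjusted p = 5.8e-05). MS4A7, a membrane protein known from macrophages, went from 4.24 and 4.46 to 6.88 and 6.15 (2.17 ± 0.24, adjusted p = 0.000794). TMEM141 had fallen from 8.83 and 9.05 to 7.14 and 6.85 and ended above its 48 h level, at 9.68 and 9.60. It was the 1 gene of these 6 that lost its class in a fit without 1 array, since its difference from 48 h was small (0.71 ± 0.15, adjusted p = 0.027). Leukocyte and macrophage markers were read beside MS4A7: 3 of the 18 measured were called, SLA-DRA and TYROBP higher and CD79B lower (-0.50 ± 0.13; adjusted p = 0.156 without 96 h replicate 1, 0.117 without 96 h replicate 2 and 0.0631 without 144 h replicate 1). Over all named genes, 23.1% were called. The summed level of the 18 markers was 8.68 and 8.61 at 96 h and 8.48 and 9.04 at 144 h. PTPRC, which marks leukocytes, stayed low (3.62 and 3.75, then 3.52 and 3.67). The part of such cells in the MS4A7 value was not tested.

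The 6 largest new levels downward were those of ITGA4, SNRPD3, KITLG, PRR15, CAVIN2 and TMEM65. ITGA4, the integrin chain that binds VCAM1 and fibronectin, read 4.35 and 4.12 before culture, 7.45 and 7.74 at 48 h, 8.82 and 8.82 at 96 h and 6.61 and 5.46 at 144 h. It climbed until 96 h and then fell below its 48 h level, the largest downward difference in this class (-2.79 ± 0.32, adjusted p = 0.000842). KITLG, the ligand of the KIT receptor, read 3.80 and 3.51 before culture, 6.18 and 6.11 at 48 h, 6.66 and 6.70 at 96 h and 5.27 and 4.04 at 144 h. Both arrays at 144 h lay below all arrays at 48 h and 96 h although they differed from each other by more than 1 unit (-2.02 ± 0.33, adjusted p = 0.00403), and its other feature differed by -1.39. PRR15 fell to 5.78 and 6.33 from 7.91 and 7.80 (-1.80 ± 0.19), and CAVIN2, a coat protein of caveolae, to 4.93 and 5.39 from 6.80 and 6.87 (-1.68 ± 0.18). TMEM65, of the mitochondrial inner membrane, had a difference of -1.57 ± 0.14. SNRPD3, a core protein of the splicing ribonucleoproteins, had one of -2.20 ± 0.12 but ended close to its 48 h level (144 h minus 48 h -0.50 ± 0.12, adjusted p = 0.0393). All 6 calls against 96 h held in the 8 fits without 1 array. The class was less steady than for the upward genes, and PRR15 alone kept it in all 8 fits. ITGA4 and CAVIN2 kept it in 6 fits, KITLG and TMEM65 in 2 and SNRPD3 in 1. These 5 lost it through their difference from 48 h.

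Partial returns were largest for NT5C, a nucleotidase, which went from 8.85 and 8.87 at 48 h to 5.94 and 6.14 at 96 h and 8.36 and 8.36 at 144 h (2.32 ± 0.11, adjusted p = 2.98e-05). MSMB, a secreted microseminoprotein, rose by 2.22 ± 0.17 and COQ3, an enzyme of ubiquinone synthesis, by 2.12 ± 0.11. SLA-DRA, a class II antigen-presenting chain, rose from 3.50 and 3.41 to 4.74 and 6.02 (1.92 ± 0.35, adjusted p = 0.00612), with wide spread at 144 h. TYROBP, an adaptor of myeloid receptors, rose as well (1.09 ± 0.20, adjusted p = 0.0614 without 96 h replicate 2), beside the leukocyte marker levels given above. Downward, PCYT1B, an enzyme of phosphatidylcholine synthesis, went from 7.40 and 7.38 to 5.26 and 5.38 (-2.07 ± 0.12). S100A2, a calcium-binding protein, had a difference of -1.84 ± 0.14 and CD34, a surface sialomucin, one of -1.58 ± 0.13. By the definition of the class, these genes lay between their 48 h and 96 h levels at 144 h. Of the 8 largest partial returns, 4 in each direction with INSIG1 described below, all kept the call against 96 h in the 8 fits without 1 array, but 2 kept the class in all of them. NT5C and COQ3 kept it in 1 fit each.

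Of 35 glycoprotein and proteoglycan genes measured, 11 rose and 5 fell in the last step (over all named genes, 13% and 10.1%), and the list's median difference was 0.12 against -0.000743 over all named genes. DCN, decorin, read 5.16 and 5.34 before culture, 9.71 and 9.65 at 48 h, 9.30 and 9.35 at 96 h and 11.31 and 11.17 at 144 h. Both 96 h arrays lay below both 48 h arrays, a fall that was not called in the main fit but was under quantile normalization. From 96 h, DCN rose 3.76-fold in the last step (1.91 ± 0.12, adjusted p = 7.05e-05). LUM, lumican, rose at each step, from 7.78 and 7.54 to 8.60 and 8.65 and 10.53 and 10.15 (1.71 ± 0.17, adjusted p = 0.000436). PRELP, the small leucine-rich member described above, kept its call in all 8 fits without 1 array. The calls of BGN and FMOD were lost in some of these fits. BGN, biglycan, rose from 8.77 and 8.84 to 9.88 and 9.42 (0.85 ± 0.17; adjusted p = 0.076 without 96 h replicate 1 and 0.0579 without 96 h replicate 2). FMOD, fibromodulin, read 9.79 and 9.77 at 96 h and 11.10 and 10.16 at 144 h (0.86 ± 0.26; adjusted p = 0.0465, and 0.0779 without either 0 h array, 0.0747 without either 48 h array, 0.178 without 96 h replicate 1 and 0.181 without 96 h replicate 2).

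Among the other matrix glycoproteins, POSTN, periostin, read 10.18 and 10.11 at 48 h, 8.47 and 8.43 at 96 h and 9.93 and 10.16 at 144 h, a return (1.59 ± 0.13, adjusted p = 0.000227). TNC, tenascin, rose by 1.09 ± 0.28 (adjusted p = 0.117 without 96 h replicate 1 and 0.12 without 96 h replicate 2) and MGP, an inhibitor of calcification, by 1.03 ± 0.18 (adjusted p = 0.0533 without 96 h replicate 1). FBLN5, which organises elastic fibres, had the largest decrease of the list and ended at a new level, from 9.50 and 9.60 to 7.93 and 8.76 (-1.21 ± 0.25; adjusted p = 0.0602 without 96 h replicate 1 and 0.0745 without 96 h replicate 2). GPC1, a cell-surface proteoglycan, returned downward (-0.81 ± 0.14; adjusted p = 0.0631 without 96 h replicate 1).

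Called genes of the fibrillar matrix list went in both directions. Of 19 genes of fibrillar matrix, 3 were higher and 6 lower at 144 h (over all named genes, 13% and 10.1%). COL14A1, which decorates fibrils, was level from 48 h to 96 h and read 8.75 and 8.77 against 7.57 and 7.67 at 144 h (1.14 ± 0.12, adjusted p = 0.000536). COL3A1 went on rising, from 6.18 and 6.25 to 8.11 and 8.001 and 9.01 and 8.59 (0.74 ± 0.15; adjusted p = 0.0578 without 96 h replicate 1 and 0.0859 without 96 h replicate 2). COL1A1, the main chain of type I collagen, had no called difference (11.85 and 11.88, then 12.28 and 11.86). COL5A2, of the minor fibril-nucleating type V, returned downward from 9.77 and 9.68 to 8.41 and 8.23 (-1.40 ± 0.12, adjusted p = 0.000249). COL5A1 also fell (-0.78 ± 0.14; adjusted p = 0.069 without 96 h replicate 1), but another feature of that gene differed by 0.10. COL11A1 differed by -0.92 ± 0.25 with a call that failed in 6 of the 8 fits (adjusted p = 0.0585 without either 0 h array, 0.0526 without either 48 h array, 0.14 without 96 h replicate 1 and 0.154 without 96 h replicate 2). In the basement membrane list (10 genes, 2 higher and 3 lower), LAMA4 alone reached a new level, while LAMB1, a partner chain of laminins, returned downward (-0.61 ± 0.11; adjusted p = 0.0708 without 96 h replicate 1).

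Several of these genes also mark fibroblasts and pericytes. Of the 13 measured markers of those cells, 4 were higher (DCN, LUM, THY1 and COL3A1) and 1 lower (RGS5), all 5 at new levels. Over all named genes, 13% were higher and 10.1% lower. The summed level of the 13 was 12.51 and 12.52 at 96 h and 13.33 and 12.995 at 144 h, after 11.52 and 11.45 at 48 h and 8.89 and 9.16 before culture. THY1 rose from 6.41 and 6.20 to 8.07 and 6.96 (1.21 ± 0.31; adjusted p = 0.0992 without 96 h replicate 1 and 0.151 without 96 h replicate 2). FAP read 5.08 and 5.04 and then 7.54 and 5.47 and was not called (adjusted p = 0.0937). PDGFRB, a receptor shared by fibroblasts and pericytes, read 6.99 and 7.02 and 6.89 and 7.05, and the pericyte genes ABCC9 (2.66 and 2.58, then 2.64 and 2.47) and KCNJ8 (3.76 and 3.77, then 3.49 and 3.56) stayed near the dim range. RGS5, a pericyte gene that limits G protein signalling, went from 10.03 and 9.86 at 48 h to 8.72 and 8.60 and 6.86 and 7.31 (-1.57 ± 0.19, adjusted p = 0.00102). In cell mixtures a changed share of a cell type and a changed level per cell cannot be told apart, and the part of fibroblasts in the matrix values was not tested.

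**Figure D4:**
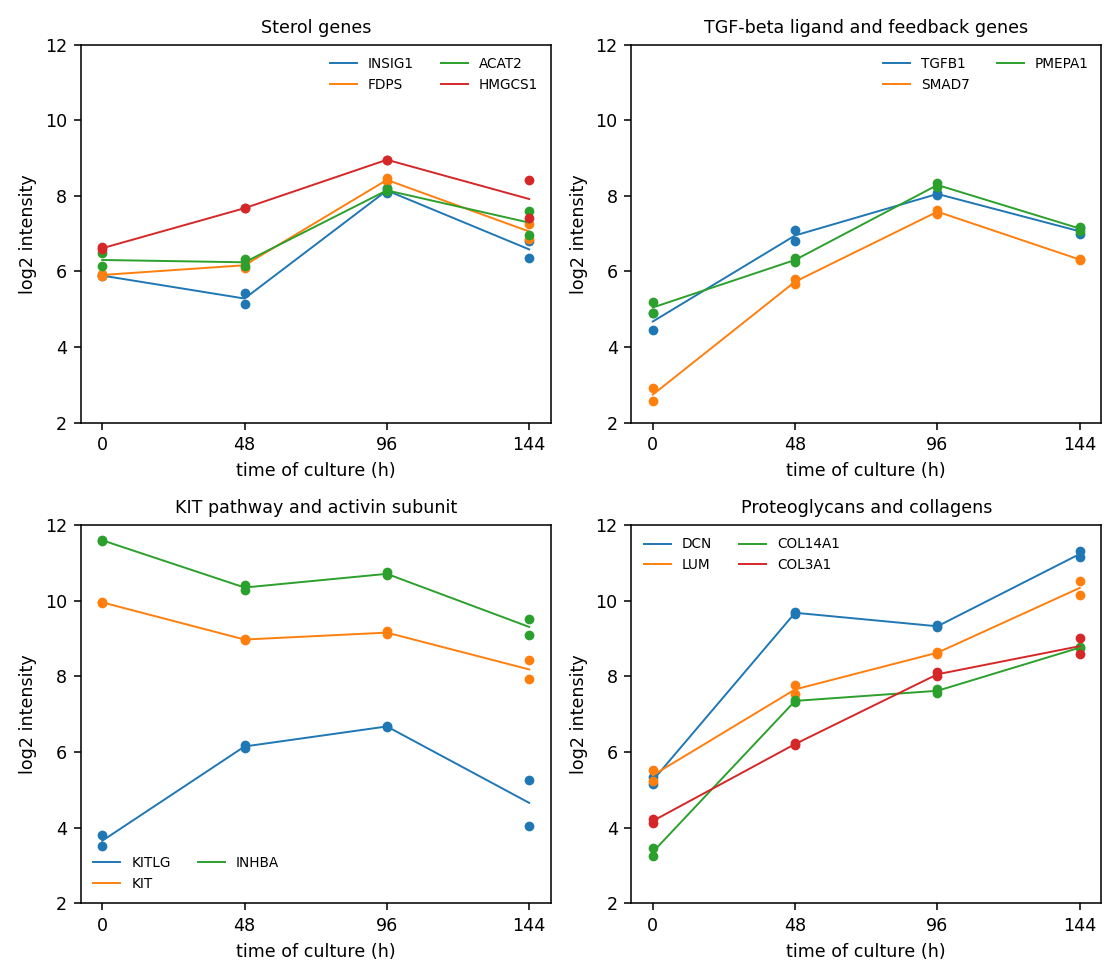
Log2 intensity (vertical axis) against time of culture in hours (horizontal axis) for genes of 4 groups, with points for the 2 arrays of a time and lines through their means. INSIG1, FDPS, SMAD7 and PMEPA1 peak at 96 h and come part of the way back; KITLG, KIT and INHBA fall after 96 h; DCN, LUM, COL14A1 and COL3A1 end at their highest level.

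The list of TGF-beta, activin and BMP signalling held 32 measured genes, 7 of them higher and 9 lower at 144 h (over all named genes, 13% and 10.1%). TGFB1, SMAD7 and PMEPA1 came down from a peak at 96 h. TGFB1 read 6.82 and 7.09 at 48 h, 8.07 and 8.03 at 96 h and 6.98 and 7.14 at 144 h, a return (-0.99 ± 0.17, adjusted p = 0.00482). SMAD7, which blocks the receptor, read 2.58 and 2.91 before culture, 5.79 and 5.67 at 48 h, 7.63 and 7.53 at 96 h and 6.31 and 6.32 at 144 h. PMEPA1, which traps receptor SMADs, followed the same course with 6.36 and 6.25, 8.23 and 8.34 and 7.08 and 7.19. Both fell by more than 1 unit (-1.27 ± 0.14, adjusted p = 0.000642; -1.15 ± 0.13, adjusted p = 0.000787) and were called above 48 h, although SMAD7 kept that class in 2 and PMEPA1 in 7 of the 8 fits without 1 array. TGFB3 fell too (-0.94 ± 0.20; adjusted p = 0.066 without 96 h replicate 1 and 0.0846 without 96 h replicate 2).

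Activin and BMP members followed other courses. INHBA, the subunit shared by activin A and inhibin A, was high at all times, read 10.67 and 10.75 at 96 h and fell to 9.10 and 9.52 at 144 h, below all arrays of earlier times (-1.40 ± 0.15, adjusted p = 0.000634). FST, follistatin, which binds activin, had dropped from 9.86 and 9.70 at 48 h to 5.83 and 5.78 at 96 h and read 6.51 and 7.32 at 144 h (1.11 ± 0.23; adjusted p = 0.0716 without 96 h replicate 1 and 0.0782 without 96 h replicate 2). ID1, a target of BMP signalling, fell at each step to 5.24 and 5.78 (-0.86 ± 0.17; adjusted p = 0.0662 without 96 h replicate 1 and 0.0663 without 96 h replicate 2). BMP2 rose by 1.24 ± 0.21 (adjusted p = 0.00466), with -0.01 for its other feature. BMPR1A, a BMP receptor, rose by 0.61 ± 0.13 (adjusted p = 0.114 without 96 h replicate 1 and 0.0592 without 96 h replicate 2) and its effector SMAD1 by 0.64 ± 0.15 (adjusted p = 0.104 without 96 h replicate 1, 0.116 without 96 h replicate 2 and 0.0606 without 144 h replicate 1). For the receptor BMPR1B, the features disagreed in sign (0.48 ± 0.11 for the named one, -0.72 for the other; adjusted p = 0.091 without 96 h replicate 1 and 0.143 without 96 h replicate 2).

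Among growth factors and receptor tyrosine kinases, 3 of 33 were higher and 5 lower (over all named genes, 13% and 10.1%). KIT, the receptor of KITLG, fell beside its ligand, from 9.20 and 9.12 at 96 h to 7.92 and 8.45 at 144 h (-0.97 ± 0.17, adjusted p = 0.0049). Its fall between 48 h and 144 h was smaller (-0.79 ± 0.17, adjusted p = 0.0237). TYRO3, a receptor of GAS6, rose from 5.73 and 5.92 to 6.65 and 6.93 (0.97 ± 0.14, adjusted p = 0.00251) while GAS6 came down from its 96 h level (-0.81 ± 0.19; adjusted p = 0.116 without 96 h replicate 1, 0.0997 without 96 h replicate 2 and 0.0513 without 144 h replicate 1). BDNF returned downward (-1.38 ± 0.25; adjusted p = 0.0579 without 96 h replicate 1). FGF2 read 5.89 and 5.86 and then 7.42 and 6.37, an increase carried by 1 array (1.02 ± 0.29; adjusted p = 0.0399, and 0.0667 without either 0 h array, 0.0617 without either 48 h array, 0.159 without 96 h replicate 1 and 0.165 without 96 h replicate 2).

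IGF genes were called higher more often than lower in the main fit, with a median of 0.318. At an adjusted p below 0.01 in limma, 3 were higher and 2 lower. Of 16, 7 were higher and 2 lower (over all named genes, 13% and 10.1%). IGFBP4, a binding protein that restrains IGF action, read 7.22 and 7.35 before culture, 5.88 and 5.69 at 48 h, 6.46 and 6.41 at 96 h and 8.28 and 7.81 at 144 h. It rose 3.05-fold in the last step (1.61 ± 0.16, adjusted p = 0.00053). IGF1 itself read 10.15 and 10.16 before culture, 7.64 and 7.73 at 96 h and 9.31 and 8.29 at 144 h (1.11 ± 0.28; adjusted p = 0.127 without 96 h replicate 1 and 0.102 without 96 h replicate 2). PAPPA, the protease that cleaves IGFBP4, rose from 4.90 and 5.12 to 5.86 and 5.94, a return (0.89 ± 0.12, adjusted p = 0.00182). IRS1, the docking protein of the receptor, returned as well (0.70 ± 0.14; adjusted p = 0.0697 without 96 h replicate 1 and 0.077 without 96 h replicate 2). IGFBP7 came down part of the way from 11.17 and 11.17 to 10.46 and 10.31 (-0.78 ± 0.11, adjusted p = 0.00192), and STC2, which inhibits PAPPA, returned downward (-0.75 ± 0.12, adjusted p = 0.00351).

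Granulosa identity genes were called 6 times higher and 2 times lower among 24 (over all named genes, 13% and 10.1%), with a median of 0.0872. NR5A1, the steroidogenic factor SF-1, read 7.94 and 7.93 at 48 h, 6.84 and 6.94 at 96 h and 7.64 and 8.02 at 144 h, a return (0.95 ± 0.14, adjusted p = 0.00276), although its other feature differed by -0.14. ESR1, an oestrogen receptor, rose from 3.83 and 4.27 to 5.03 and 5.47 (1.20 ± 0.20, adjusted p = 0.00469) and stayed far below its level before culture (9.35 and 9.52), and its other features differed by -0.02 to 0.74. IRX3, a transcription factor of granulosa cells that contact the oocyte, reached a new level of 6.70 and 6.83 (0.97 ± 0.14, adjusted p = 0.00216). LHCGR, the LH receptor, had been lost between 48 h (10.27 and 10.21) and 96 h (5.39 and 4.89) and read 5.89 and 4.99 at 144 h (0.30 ± 0.28, adjusted p = 0.504). NR5A2, the partner factor of NR5A1, read 6.06 and 6.07 and then 4.95 and 5.96 and was not called (adjusted p = 0.156). Of 17 genes of steroid synthesis, 4 were higher and 1 lower. HSD3B1, which makes progesterone and was induced by culture, showed no called difference (9.77 and 9.69, then 9.81 and 9.91; 0.13 ± 0.16). NPC2, a carrier of cholesterol out of lysosomes, rose from 10.16 and 10.14 to 10.74 and 10.82 (0.64 ± 0.10, adjusted p = 0.00386), and TSPO, of the mitochondrial outer membrane, rose by 0.76 ± 0.18 (adjusted p = 0.138 without 96 h replicate 1, 0.0853 without 96 h replicate 2 and 0.0667 without 144 h replicate 2). GSTA1, which had fallen from 10.69 and 10.70 at 48 h to 4.02 and 4.30 at 96 h, read 2.84 and 3.76 at 144 h and lay at the threshold (adjusted p = 0.0493, and 0.0815 without either 0 h array, 0.0787 without either 48 h array, 0.119 without 96 h replicate 1, 0.246 without 96 h replicate 2 and 0.084 without 144 h replicate 1). Of 16 ovulation and cumulus genes, ADAMTS1, a protease of the expanding cumulus matrix, was the 1 that was called (0.78 ± 0.13; adjusted p = 0.0504 without 96 h replicate 1).

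Of 20 cholesterol synthesis genes measured, 7 were lower and none higher at 144 h (over all named genes, 10.1% and 13%). Their median was -0.377, after a median of 0.837 from 48 h to 96 h. At an unadjusted p below 0.05 in limma, 11 of the 20 were lower and again none higher. INSIG1, the sterol sensor that holds SREBP in the endoplasmic reticulum and is induced with its targets, read 5.14 and 5.43 at 48 h, 8.09 and 8.20 at 96 h and 6.80 and 6.36 at 144 h. FDPS, which makes farnesyl diphosphate, read 6.09 and 6.24, 8.38 and 8.46 and 7.25 and 6.86 at the same times. Both fell (-1.56 ± 0.17, adjusted p = 0.000662; -1.36 ± 0.15, adjusted p = 0.000676) and both ended above 48 h. HMGCS1, an early enzyme of the path, went from 8.96 and 8.95 to 8.42 and 7.42 (-1.04 ± 0.27; adjusted p = 0.0504 without either 0 h array, 0.131 without 96 h replicate 1 and 0.127 without 96 h replicate 2), and ACAT2, the first enzyme, from 8.12 and 8.17 to 7.61 and 6.97 (-0.85 ± 0.21; adjusted p = 0.112 without 96 h replicate 1, 0.129 without 96 h replicate 2 and 0.0581 without 144 h replicate 2). The 2 arrays at 144 h were apart in the same way for several members, replicate 1 lying nearer to 96 h. CYP51 read 8.18 and 7.28 at 144 h against 8.45 and 8.53 at 96 h and STARD4 6.57 and 5.47 against 6.99 and 6.90, and neither was called (adjusted p = 0.0702; adjusted p = 0.0607).

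Of 41 fatty acid and lipid storage genes, 11 were lower and 7 higher (over all named genes, 10.1% and 13%). ACSL3, which activates fatty acids at lipid droplets, read 5.48 and 5.26 at 48 h. It rose to 7.92 and 7.99 at 96 h and fell to 6.48 and 5.80 at 144 h (-1.81 ± 0.21, adjusted p = 0.000842). Its class was unresolved, and both 144 h arrays lay above both 48 h arrays. ACLY, the enzyme that makes cytosolic acetyl-CoA, returned downward from 9.52 and 9.55 to 8.85 and 8.66 (-0.78 ± 0.12, adjusted p = 0.00344). FABP3, a fatty acid carrier, came down by part (-0.96 ± 0.16, adjusted p = 0.004), with 0.01 for its other feature. Upward, ACSL5 rose from 3.29 and 3.58 to 4.92 and 4.41, a new level (1.23 ± 0.18, adjusted p = 0.00263). PLIN2, the coat protein of lipid droplets, rose by 0.91 ± 0.17 (adjusted p = 0.0713 without 96 h replicate 2), and PDK4, which spares glucose when fat is burned, by 0.87 ± 0.19 (adjusted p = 0.0623 without 96 h replicate 1 and 0.11 without 96 h replicate 2).

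**Figure D5:**
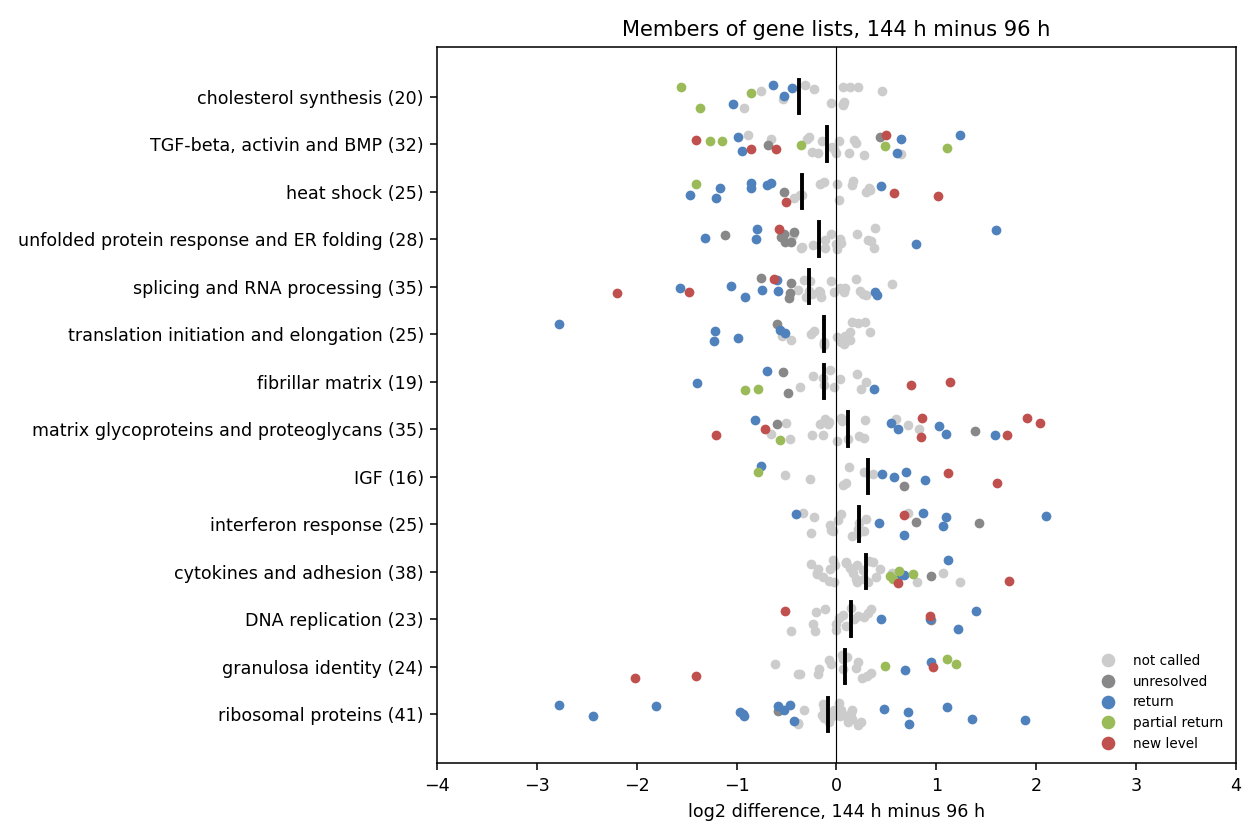
Log2 difference between 144 h and 96 h (horizontal axis) for each measured member of 14 gene lists (rows, with the number of genes measured), coloured by class; the black tick is the median of the list. Cholesterol synthesis (median -0.377), heat shock (-0.346) and splicing (-0.272) lie to the left, and IGF (0.318), cytokine (0.295) and interferon genes (0.227) to the right.

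Heat shock genes were lower more often than higher at 144 h, 10 against 3 of 25 (over all named genes, 10.1% and 13%). Their median was -0.346. Chaperones of the cytosol and mitochondria were among the returns. HSPD1, the mitochondrial chaperonin, read 8.18 and 8.33 at 48 h, 9.34 and 9.40 at 96 h and 8.34 and 7.99 at 144 h (-1.21 ± 0.15, adjusted p = 0.00117). HSP90AA1 (-0.86 ± 0.11), CCT2 of the cytosolic chaperonin (-1.17 ± 0.11) and the HSP90 partner CHORDC1 (-1.47 ± 0.13) did the same. HSPB8, a small heat shock protein that works with BAG3, came part of the way back from 6.59 and 6.64 to 5.04 and 5.37 (-1.41 ± 0.15). BAG3 itself rose (0.57 ± 0.11; adjusted p = 0.0662 without 96 h replicate 1 and 0.0674 without 96 h replicate 2), as did the small heat shock protein HSPB6 (1.02 ± 0.25; adjusted p = 0.0989 without 96 h replicate 1 and 0.12 without 96 h replicate 2). Of 28 genes of the unfolded protein response and folding in the endoplasmic reticulum, 10 were lower and 2 higher. SDF2L1, a cofactor of BiP, returned downward (-1.32 ± 0.19, adjusted p = 0.00217) and SEL1L, of the degradation complex, too (-0.81 ± 0.13, adjusted p = 0.00366). HYOU1, a lumenal chaperone, fell from 9.19 and 9.18 to 7.73 and 8.39 (-1.12 ± 0.20; adjusted p = 0.0519 without 96 h replicate 1). The 2 that rose were stress regulators: DDIT3, or CHOP, returned from 5.84 and 5.82 to 7.43 and 7.44 (1.60 ± 0.13, adjusted p = 0.000258) and XBP1 from 7.65 and 7.73 to 8.42 and 8.55 (0.80 ± 0.11, adjusted p = 0.00186).

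Genes of RNA processing and translation leaned downward. The 35 splicing genes had a median of -0.272, and 13 of them fell and 2 rose (over all named genes, 10.1% and 13%). HNRNPM went from 9.29 and 9.26 to 7.93 and 7.48 (-1.57 ± 0.15) and HNRNPH1 from 10.26 and 10.30 to 9.32 and 9.13 (-1.06 ± 0.11), both RNA-binding proteins of splice choice and both returns. SNRPF, a core partner of SNRPD3, fell by 1.48 ± 0.14 and ended slightly below 48 h (144 h minus 48 h -0.58 ± 0.14, adjusted p = 0.0436). Of 38 genes of ribosome biogenesis, 8 were lower and 3 higher. NCL, nucleolin, read 7.04 and 6.93 at 48 h, 8.42 and 8.49 at 96 h and 6.73 and 6.67 at 144 h (-1.76 ± 0.11, adjusted p = 7.05e-05), and the nucleolar helicase DDX21 returned with it (-1.24 ± 0.15, adjusted p = 0.00106). Of 25 translation factors, 7 were lower and none higher, against 9 lower and 1 higher at an unadjusted p below 0.05 in limma. None of the 25 was called between 144 h and 48 h, and none passed an unadjusted p of 0.05 there. EIF4A2, a helicase of initiation, and EIF5B, which joins the subunits, each had a difference of -1.22 (SE 0.15 and 0.11).

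Interferon and cytokine genes leaned upward. The interferon response list (25 genes, median 0.227) had 9 members higher and 1 lower at 144 h (over all named genes, 13% and 10.1%). For 16 of the 25, both 144 h arrays lay above both 96 h arrays (over all named genes, 31.1%). XAF1, a pro-apoptotic interferon target, read 5.55 and 5.75 at 48 h, 3.95 and 4.13 at 96 h and 6.29 and 5.99 at 144 h, the largest return of the list (2.10 ± 0.14, adjusted p = 0.000116). USP18, which turns interferon signalling down, returned with 1.07 ± 0.15, and MX1, an antiviral GTPase, with 1.10 ± 0.12, although other MX1 features differed by 0.07 to 0.71. OAS2, an antiviral synthetase, rose to a new level, from 6.49 and 6.58 to 7.19 and 7.23 (0.67 ± 0.11, adjusted p = 0.00363), and was still below its level before culture (8.16 and 8.26). The 1 decrease, IRF7, was small (-0.41 ± 0.11; adjusted p = 0.134 without 96 h replicate 1, 0.182 without 96 h replicate 2 and 0.0616 without 144 h replicate 1).

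In the list of 38 cytokine and adhesion genes, with a median of 0.295, 10 rose and none fell (over all named genes, 13% and 10.1%). CXCL16, a membrane-bound chemokine, read 7.34 and 7.36 at 48 h, 6.72 and 6.98 at 96 h and 8.56 and 8.59 at 144 h, past its earlier levels (1.73 ± 0.12, adjusted p = 0.000131). CXCL12, a chemokine of stromal cells, returned from 3.27 and 3.22 to 4.46 and 4.28 (1.12 ± 0.13, adjusted p = 0.000822). VCAM1, the ligand of the integrin whose ITGA4 chain fell, rose at each step to 9.01 and 8.68 (0.61 ± 0.16; adjusted p = 0.13 without 96 h replicate 1, 0.134 without 96 h replicate 2 and 0.0805 without 144 h replicate 1). IL33 read 6.70 and 6.78 at 96 h and 8.76 and 7.20 at 144 h and was not called (adjusted p = 0.0645). At an unadjusted p below 0.05 in limma, 15 of the 38 were higher and again none lower.

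Of 20 integrin and focal adhesion genes, 4 were higher and 3 lower at 144 h (over all named genes, 13% and 10.1%). Of 17 contractile genes, 1 was higher and 3 lower. ITGA4, described above, fell, while other integrin chains rose: ITGB3 rose by 0.53 ± 0.12 (adjusted p = 0.11 without 96 h replicate 1 and 0.0947 without 96 h replicate 2) and ITGA5 by 0.71 ± 0.20 (adjusted p = 0.0405, and 0.0606 without either 0 h array, 0.0662 without either 48 h array, 0.187 without 96 h replicate 1, 0.152 without 96 h replicate 2 and 0.0828 without 144 h replicate 1). VCL, vinculin, came down by -0.52 ± 0.11 (adjusted p = 0.0889 without 96 h replicate 1 and 0.0833 without 96 h replicate 2). SMTN, smoothelin, which marks contractile smooth muscle, rose at each step, from 6.15 and 6.24 to 7.59 and 7.52 and 8.36 and 8.34 (0.80 ± 0.11, adjusted p = 0.00171). ANKRD1, a target of YAP, read 3.98 and 4.18 at 48 h, 9.39 and 9.28 at 96 h and 7.39 and 8.45 at 144 h, still far above 48 h after the fall (-1.41 ± 0.31; adjusted p = 0.0898 without 96 h replicate 1 and 0.0696 without 96 h replicate 2). Of 22 mesenchymal transition and cadherin genes, 3 were higher and 4 lower. CDH2, N-cadherin, which joins granulosa cells, fell from 10.20 and 10.06 to 9.37 and 9.22, below its 48 h level (-0.83 ± 0.13, adjusted p = 0.00349). S100A4, a calcium-binding protein of motile cells, returned from 7.71 and 7.68 to 5.53 and 5.75 (-2.06 ± 0.13, adjusted p = 9.1e-05), and DSP, desmoplakin, came down by part (-1.05 ± 0.16, adjusted p = 0.00272).

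Proteases and their inhibitors gave 28 measured genes, 7 of them higher at 144 h and 2 lower (over all named genes, 13% and 10.1%). MMP14, the membrane protease that activates MMP2, read 7.80 and 7.51 at 48 h, 9.72 and 9.57 at 96 h and 7.49 and 7.43 at 144 h, a return (-2.19 ± 0.13, adjusted p = 7.05e-05), and its other features differed by -2.19 to -0.44. PLAU, urokinase, rose at each step, from 5.18 and 5.47 to 5.89 and 5.81 and 6.91 and 6.78 (0.99 ± 0.13, adjusted p = 0.00155), beside its inhibitor SERPINB2 described above. SERPING1, the inhibitor of complement C1, ended past 48 h (1.26 ± 0.11, adjusted p = 0.000343). ANPEP, a surface aminopeptidase also counted among theca markers, read 3.72 and 3.75 before culture, 4.87 and 4.89 at 48 h, 8.22 and 8.21 at 96 h and 9.84 and 9.21 at 144 h (1.31 ± 0.19, adjusted p = 0.00234). It was the 1 called gene of the 7 measured theca markers, whose summed level was 12.02 and 12.04 at 96 h and 12.56 and 12.13 at 144 h, and the defining theca genes CYP17A1 (3.15 and 2.93, then 2.70 and 2.88) and INSL3 (4.003 and 3.97, then 4.05 and 4.27) were dim or low at both times.

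DNA replication genes were called 6 times higher and 1 time lower among 23 (over all named genes, 13% and 10.1%), with a median of 0.146. POLE2, a subunit of DNA polymerase epsilon, returned from 4.09 and 4.18 to 5.74 and 5.32 (1.40 ± 0.15, adjusted p = 0.000588), and so did RFC3 of the clamp loader (1.22 ± 0.20, adjusted p = 0.00449) and the histone chaperone CHAF1B (0.94 ± 0.14, adjusted p = 0.00252). CCNE1, cyclin E1, was level until 96 h (5.47 and 5.56) and read 6.65 and 6.26 at 144 h (0.93 ± 0.15, adjusted p = 0.00354). Its partner kinase CDK2 was lower (-0.52 ± 0.12; adjusted p = 0.0604 without 96 h replicate 1 and 0.156 without 96 h replicate 2). Of 30 mitosis genes, 3 were higher and 5 lower, in no common direction. PTTG1, securin, returned upward (1.18 ± 0.11, adjusted p = 0.000314) and CDC20, which triggers its destruction, downward (-0.87 ± 0.13, adjusted p = 0.0024). Of 16 cell cycle inhibitors and p53 targets, 4 were higher, led by CCNG1 (1.10 ± 0.13, adjusted p = 0.000871), and 1 lower.

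Of 30 antioxidant and glutathione genes, 8 were higher and 4 lower (over all named genes, 13% and 10.1%). TXNIP, the inhibitor of thioredoxin that follows glucose, moved most, from 9.53 and 9.60 at 48 h to 5.97 and 5.85 at 96 h and 9.19 and 8.45 at 144 h (2.91 ± 0.22, adjusted p = 0.000162). It stayed unresolved because its interval against 48 h reached beyond 1 log2 unit, with both 144 h arrays below both 48 h arrays. TXNRD1, thioredoxin reductase, returned downward (-1.05 ± 0.13) and GSR, glutathione reductase, upward (0.75 ± 0.11). TALDO1, transaldolase of the pentose phosphate path, returned from 9.42 and 9.48 to 10.63 and 10.67 (1.20 ± 0.11, adjusted p = 0.000347). Of 24 glycolysis and hypoxia genes, 6 were higher and 2 lower. HK1, a hexokinase, returned downward (-1.10 ± 0.13, adjusted p = 0.00101), while the glycolytic enzyme TPI1 (0.75 ± 0.11, adjusted p = 0.00274) and CA9, a carbonic anhydrase of hypoxia (1.34 ± 0.12, adjusted p = 0.000313), returned upward.

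In cyclic AMP and G protein signalling, 8 of 32 genes were higher and 4 lower (over all named genes, 13% and 10.1%). PDE3A, which degrades cyclic AMP, rose at each step, from 5.67 and 5.59 to 6.90 and 6.83 and 7.75 and 8.19 (1.10 ± 0.16, adjusted p = 0.00246). PDE4A rose late, from 4.74 and 4.80 to 5.93 and 5.67 (1.03 ± 0.12, adjusted p = 0.00105; other feature 1.42), and PDE4D returned (0.87 ± 0.15, adjusted p = 0.00555). Of 33 lysosome and autophagy genes, 6 were higher and 5 lower, beside the same 13% and 10.1%. The largest increase was that of MAP1LC3A, a coat protein of autophagosomes, from 6.08 and 6.13 to 7.42 and 7.75 (1.48 ± 0.13, adjusted p = 0.00033). Of 22 apoptosis genes, 3 were higher and 3 lower. XIAP, a caspase inhibitor, returned from 7.33 and 7.38 to 5.92 and 5.07 (-1.86 ± 0.24, adjusted p = 0.0015), as did the pro-apoptotic PMAIP1, or NOXA (-1.20 ± 0.14, adjusted p = 0.000935), so members of opposite action fell together.

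Of 33 Wnt, Notch and hedgehog genes, 4 were lower and none higher (over all named genes, 10.1% and 13%). At an unadjusted p below 0.05 in limma, 8 of the 33 were lower and 3 higher. Of 24 immediate early and phosphatase genes, 2 were higher and 2 lower, among them DUSP1 (-1.03 ± 0.20; adjusted p = 0.0562 without 96 h replicate 1 and 0.0603 without 96 h replicate 2). Of 8 YAP targets, 1 was higher and 1 lower, and of 18 genes of amino acid synthesis and transfer RNA charging, 3 were higher and none lower (4 higher and 2 lower at an unadjusted p below 0.05 in limma). SLC1A4, a transporter of neutral amino acids, led these (1.44 ± 0.17, adjusted p = 0.000901), followed by MTHFD1L of mitochondrial folate metabolism (1.14 ± 0.11, adjusted p = 0.000381). Endothelial markers (8 measured, 1 higher and 1 lower, summed level between 7.01 and 7.24 on the 4 arrays), oocyte markers (12, none higher and 1 lower, 7.28 to 7.37) and erythrocyte and platelet markers (9, none called, 6.34 to 6.44) had 2, 5 and 4 genes below the lower quartile at both times. At an unadjusted p below 0.05 in limma, 1 of the 9 erythrocyte and platelet markers was lower, and none of the 12 oocyte markers was higher.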

How the data were processed

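The deposited table holds log2 intensities of 27558 features on 8 Affymetrix whole-transcript arrays, which the authors made with RMA (per the submitters' processing notes). That method corrects background, sets the arrays to a common distribution and summarises probes, so a shift common to all features cannot be seen. The version and settings of that step are not given there. The platform annotation gave 1 symbol to 11735 features (6 updated by identifier), several to 612 and none to 15211; all were tested, and a gene is shown by its feature with the highest mean over the 8 arrays, leaving 10707 named genes. Samples were grouped by the labelled time.

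limma 3.58.1 (R 4.3.3) was fitted to all 8 arrays with 1 mean per time and eBayes (residual df 4, prior df 3.98), two-sided, with Benjamini-Hochberg adjustment over all features. Differences are later minus earlier, with the standard error of the fit. The steps were tested on simulated data. No filter on dim features was applied in the main fit. Named by rule were the 6 largest returns and new levels and the 4 largest partial returns in each direction, leaving out symbols that begin with LOC, and, for each of the 44 gene lists described, members with the largest differences. GJA1, COL1A1, the dim marker genes and the uncalled genes of the marker lists were named to describe cell types. The comparison, the classes and the lists were chosen with earlier results of these data known, so no list was tested as a set. Summed marker levels are log2 of summed linear intensities. Alternatives were other normalizations, a dim filter, other spread models, fewer arrays, a replicate block and other thresholds.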

Additional observations from a re-analysis of the deposited data

How the results depend on the processing

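The counts of called features, returns, partial returns and new levels (6115, 3902, 384 and 599) stayed within 1.5 times under median centring, quantile normalization, cyclic loess, a filter on dim features, a trended robust eBayes, only the 6 cultured arrays and a tighter or absent interval for returns. With array weights by time, partial returns fell to 218 and new levels to 361. With 1 feature per named gene the counts were 2746, 1682, 227 and 391, with fewer features tested. At an adjusted p below 0.01 they were 3033, 2044, 102 and 188, and with a fold of at least 2, 1710, 982, 53 and 95. Leaving out 1 array in turn gave 2437 to 7320 called features, 1641 to 4519 returns, 118 to 542 partial returns and 184 to 1284 new levels, lowest without a 96 h array. Another centring moved the split of calls: 3333 higher and 2782 lower became 3026 and 3127 with median centring, 3156 and 3111 with quantile normalization and 3217 and 3015 with cyclic loess.

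Of 159 called genes named in the text, 117 passed in all 8 fits without 1 array. None of these 117 lost its call under another setting except the fold of at least 2, which 24 did not reach. With only the 4 arrays compared, 20 of the 159 lost theirs, and no called gene among them changed sign under any setting run. The labels do not say whether the replicate numbers pair the samples, and with 2 arrays a time a correlation of deviations cannot settle it. Same-numbered arrays at 96 h and 144 h had a correlation of deviations of -0.0382. Those at 48 h and 144 h, where the class is decided, had one of 0.188. Over the 6 pairs of times it lay between -0.0382 and 0.188. A replicate block gave 6142 called features, 3936 returns, 382 partial returns and 577 new levels.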
